A study of Mus musculus with 6 samples.

Results

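The E2F transcription factors and the pocket proteins related to Rb were followed in mouse embryonic fibroblasts with and without the lysophosphatidic acid receptor gene Lpar6. The members are 10 genes of the 19057 that carry a probe with a single gene symbol: the pocket protein genes Rbl1 and Rbl2 and the factor genes E2f1 to E2f8. The members, like the gene lists below, were chosen by name with earlier results of these data known. Every probe annotated to the members was taken, 25 of the 45281 probes on the array. The cells are embryonic fibroblasts of a mixed 129SV and C57BL/6 background. Of the 6 arrays, 3 carried RNA of Lpar6+/+ cells (wild type, arrays A, B and C) and 3 carried RNA of Lpar6-/- cells (knockout, arrays D, E and F). No treatment, embryonic age or time in culture is given in the labels, and they do not say whether arrays of a genotype came from separate embryos or cultures. The p-values below thus speak only of how far these 6 arrays scatter, and that scatter may be technical. The series title speaks of a knock-down, while the genotype label is Lpar6-/-.

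E2F factors bind DNA at the promoters of genes for DNA synthesis and cell division, in most cases as a dimer with a DP protein. E2F1, E2F2 and E2F3 are the activating members, which are held inactive by Rb until cyclin-dependent kinases phosphorylate it. E2F4 and E2F5 work mainly with the pocket proteins p107 (Rbl1) and p130 (Rbl2) as repressors in resting cells. E2F6 represses with Polycomb proteins and without a pocket protein, and E2F7 and E2F8 are atypical repressors that bind DNA without a DP partner. In fibroblasts the E2F1 and E2F2 transcripts rise when resting cells re-enter the cell cycle.

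The targeted transcript was checked first: the single Lpar6 probe (ILMN_2792601) read 1373, 1223 and 1278 intensity units on the wild-type arrays and 76.7, 77.9 and 76.0 on the knockout arrays, where it was not detected, so it was at least 37.5-fold lower there (limma adjusted p = 1.51e-09). The detection filter kept the Lpar6 probe only through the wild type, which fixed its direction, so its p-value is no independent check. Between 19006 and 20137 probes were detected per array at a detection p below 0.05, the knockout arrays having fewer than each wild-type array. The median intensity per array lay between 88.3 and 98.3 units. All 11 fibroblast markers were kept, 8 of them higher in the knockout. Markers of other cells moved on the same arrays. The 8 kept of 11 adipocyte markers were all higher, with a summed background-corrected intensity of 3361 to 3944 in the wild type and 10130 to 11820 in the knockout. No wild-type array detected Adipoq, Cidec or Plin1, so the detection filter kept these only through the knockout and fixed their direction. All 9 kept of 11 neuronal markers were lower (6573 to 6699 against 982 to 1035), as were all 8 kept of 10 cartilage markers (17460 to 17820 against 4126 to 4185). The 8 kept of 9 epithelial markers (735 to 757 against 2198 to 2324, with Esrp1 not detected in the wild type) and the 8 kept of 9 skeletal muscle markers (7056 to 7629 against 14120 to 14840, with Ckm not detected in the wild type) were higher. Of 7 kept of 9 macrophage markers, 1 was higher and 2 lower (4265 to 4995 against 3489 to 3887). Esrp1 and Ckm were likewise kept only through the knockout, which fixed their direction. Each sum weighs the brightest genes of its list most. Among adipocyte markers Lpl was brightest, with mean uncorrected intensities of 3349 in the wild type and 8847 in the knockout. Among cartilage markers it was Col2a1, with 11080 and 1701. Of all kept genes, 20.6% were higher and 19.1% lower at a limma adjusted p below 0.05. The part of the other cell types in the results below was not tested.

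Of the 10 genes, 8 had at least 1 kept probe, meaning a detection p below 0.05 on at least 3 of the 6 arrays. In the knockout, 4 of these 8 genes were higher and 0 lower at an adjusted p below 0.05 in limma, each gene taken by its brightest kept probe. Among all 11040 kept genes, 20.6% were called higher and 19.1% lower. The 4 genes were E2f2, E2f3, E2f1 and Rbl1. Over probes, 6 of the 14 kept member probes were called higher and 0 lower, where 19.3% of all kept probes were called higher. The median change of the 8 genes was 0.23 on the log2 scale and that of all kept genes was 0.027. Log2 values of the 2 genotypes did not overlap in 4 of the 8 genes, against 52.8% of all kept genes. Values below are background-corrected, quantile-normalized log2 intensities, and changes are the knockout mean less the wild-type mean ± SE, with 3 arrays in each group. In these bulk samples, fewer cells that carry a transcript and less of it per cell cannot be told apart. An exact test of a single gene, 3 arrays against 3, cannot give a p below 0.1.

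**Figure D1:**
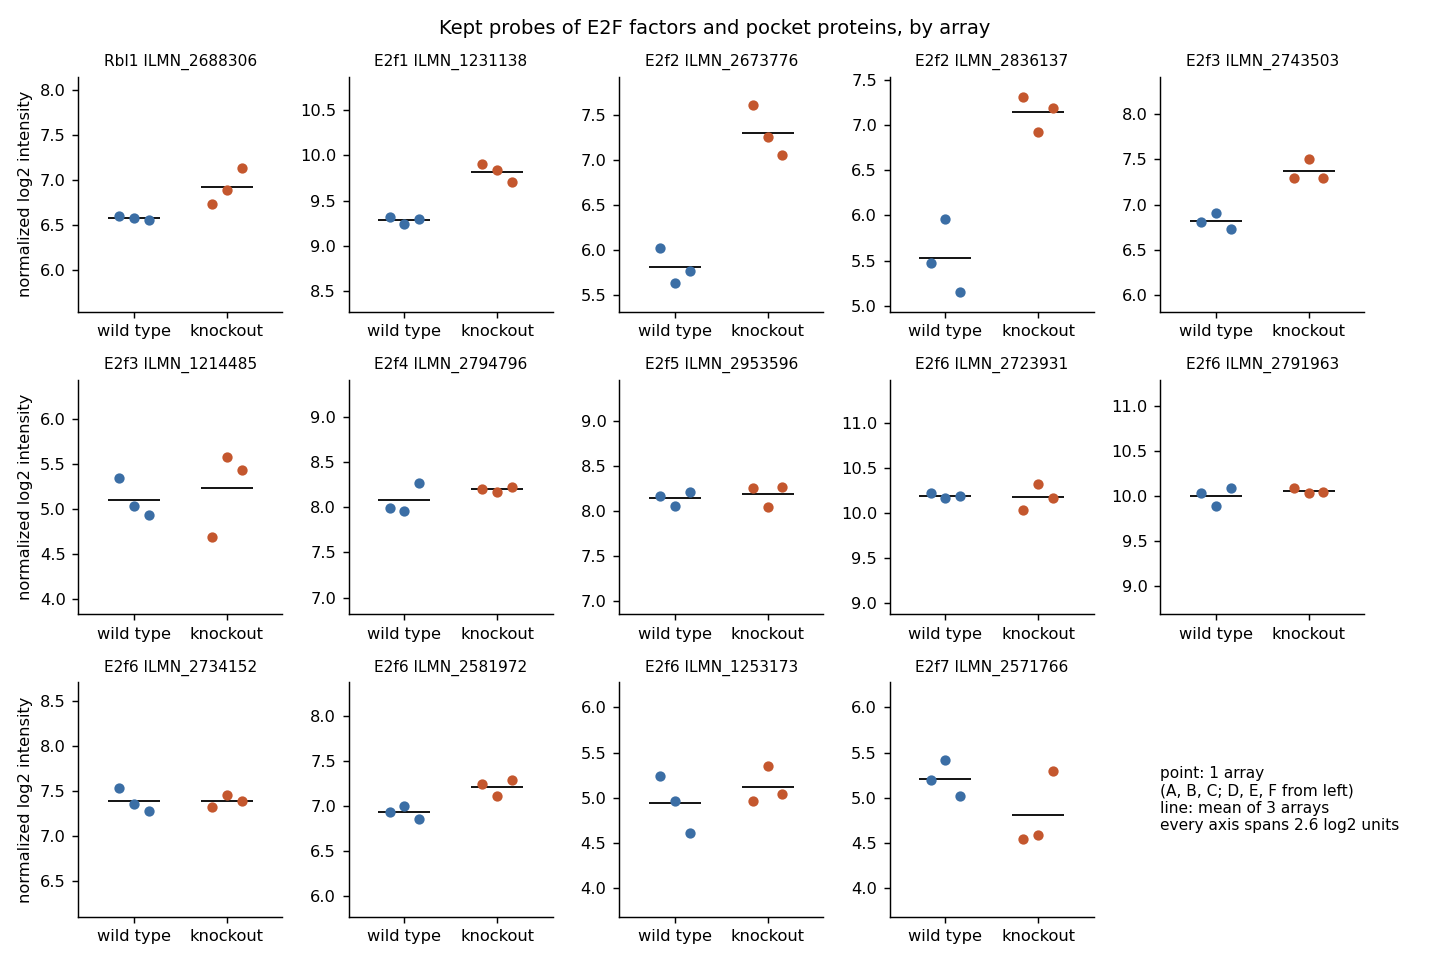
Normalized log2 intensity (vertical axis) of the 14 kept member probes on the 3 wild-type and 3 knockout arrays, with the mean of each group as a line and the same axis span in each panel. The knockout points of E2f1, of both E2f2 probes, of E2f3 ILMN_2743503, of Rbl1 and of E2f6 ILMN_2581972 lie above all wild-type points, and the other 8 panels overlap.

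E2f2, an activating member, had the largest change of the group. Its brighter probe (ILMN_2673776) read 146, 126 and 124 intensity units on the wild-type arrays and 244, 211 and 188 on the knockout arrays. The normalized values were 6.02, 5.63 and 5.77 in the wild type and 7.60, 7.25 and 7.05 in the knockout. All 3 knockout arrays lay above all 3 wild-type arrays, before and after normalization. E2f2 rose by 1.49 ± 0.15, a 2.82-fold difference (limma adjusted p = 7.07e-05). A further probe for the same accession (ILMN_2836137) read 122, 140 and 103 units against 213, 182 and 200, and rose by 1.61 ± 0.19 (limma adjusted p = 0.000177). The remaining E2f2 probe (ILMN_1248842), designed to the same accession, was not detected on any array. The wild-type signal of E2f2 lay close to background, so the size of the change depends on the correction for it: the brighter probe gave 0.86 in the authors' log2 values and 0.66 for plain log2 intensities plus 50, and was called in both.

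E2f1, the founding member of the family, has a single probe on the array (ILMN_1231138), detected on all 6 arrays. It read 802, 690 and 703 units in the wild type and 945, 978 and 872 in the knockout. Normalized values were 9.32, 9.24 and 9.30 against 9.90, 9.84 and 9.71, with no overlap between genotypes. E2f1 rose by 0.53 ± 0.092, a 1.45-fold difference (limma adjusted p = 0.00167). The call held in all 18 alternatives run for it, where the change lay between 0.44 and 0.58.

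E2f3, the activating member that is also made in forms from separate promoters, was read by 2 kept probes. Both are annotated to the same RefSeq entry, and 1 passed while the other did not. The brighter probe (ILMN_2743503) read 201, 199 and 177 units in the wild type and 211, 239 and 211 in the knockout, and its normalized values were 6.81, 6.91 and 6.73 against 7.30, 7.50 and 7.30. It rose by 0.55 ± 0.099, a 1.47-fold difference (limma adjusted p = 0.00206). The knockout arrays were higher on both scales, by a narrow margin in the uncorrected intensities. The dimmer probe (ILMN_1214485) read 117, 107 and 97.1 units against 91.9, 113 and 105, and its change of 0.13 ± 0.21 did not pass (limma adjusted p = 0.665). Knockout array D, the only array that did not detect this probe, was the lowest of all 6, and without it the change was 0.41 (limma adjusted p = 0.0484). The mean of both probes gave 0.34 for E2f3, which did not pass (limma adjusted p = 0.074), and the brighter probe's change was 0.37 in the authors' log2 values and 0.30 for plain log2 intensities plus 50. Which E2f3 transcript each probe reads was not looked up here, since probe sequences were not used.

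Rbl1 encodes p107, a pocket protein whose own gene is a known E2F target. Its detected probe (ILMN_2688306) read 184, 175 and 165 units in the wild type and 164, 178 and 195 in the knockout, so the uncorrected intensities overlapped. After normalization the values were 6.60, 6.58 and 6.56 against 6.74, 6.89 and 7.13 and no longer overlapped. The change was 0.34 ± 0.11, a 1.27-fold difference that passed (limma adjusted p = 0.0367). This call was the least secure of the 4. It was lost without wild-type array A, B or C (limma adjusted p = 0.0752, 0.0846 and 0.0945), and without knockout array E or F (0.0649 and 0.109). It was also lost under median scaling (a change of 0.14, 0.425), cyclic loess (0.28, 0.082) and without the detection filter (0.0633). Its adjusted p over 18 alternatives ran from 0.0153 to 0.425. The change was 0.21 in the authors' log2 values and 0.16 for plain log2 intensities plus 50. The other 2 Rbl1 probes (ILMN_1236935 and ILMN_1240408) were not detected on any array.

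**Figure D2:**
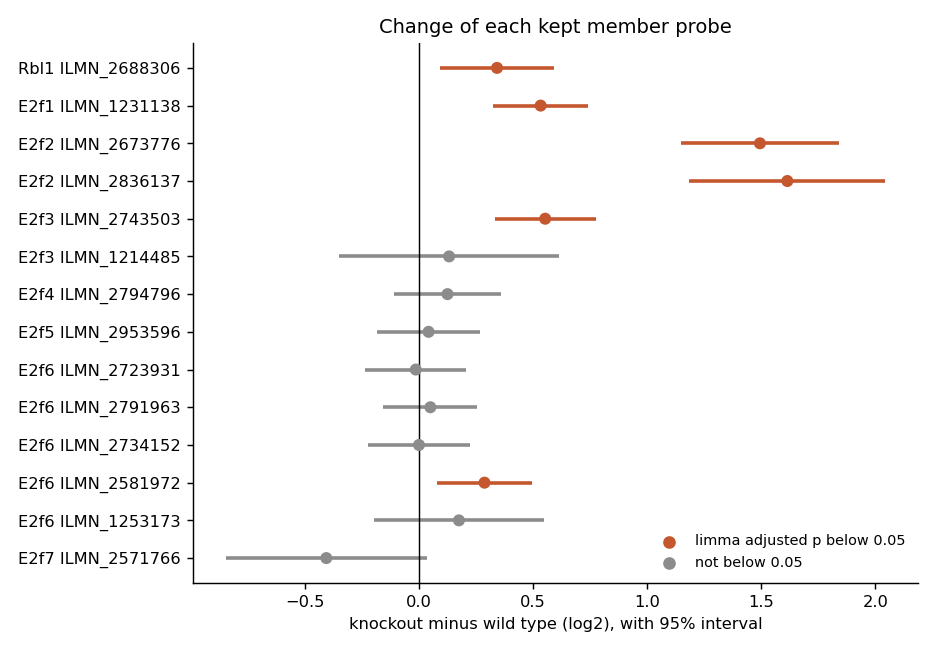
Difference in normalized log2 intensity, knockout less wild type, for the 14 kept member probes, with 95% intervals from limma; red marks an adjusted p below 0.05. Both E2f2 probes stand at 1.49 and 1.61, while E2f4, E2f5 and the 3 brightest E2f6 probes lie between -0.01 and 0.13 with intervals that include 0.

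The promoters of the members that were higher together were read from RefSeq windows of assembly GRCm38.p6, which run from 250 bases before to 50 after an annotated start; 8 of the 10 genes had a window, 10 windows in all. E2f4 and E2f5 are named only. An E2F motif was searched on both strands in 4 spellings (TTTCCCGC, TTTCGCGC, TTTGCCGC and TTTGGCGC). It was found in the windows of 4 of the 8 genes, Rbl1, E2f2, E2f3 and E2f7, and in 2.26% of all 32851 windows. Of the 4 genes called higher, 3 had it, and of the 2 kept genes with a window that were not called, 1 had it (E2f7). E2f1 had none, but its only window begins at a start 466 bases inside the annotated gene. The 4 sequences that hold the motif are printed 5′ to 3′ on the gene's strand, because they are where the family's own binding motif falls in its own genes; capitals mark every motif match.
Rbl1, chr2:157204485-157204784, minus strand: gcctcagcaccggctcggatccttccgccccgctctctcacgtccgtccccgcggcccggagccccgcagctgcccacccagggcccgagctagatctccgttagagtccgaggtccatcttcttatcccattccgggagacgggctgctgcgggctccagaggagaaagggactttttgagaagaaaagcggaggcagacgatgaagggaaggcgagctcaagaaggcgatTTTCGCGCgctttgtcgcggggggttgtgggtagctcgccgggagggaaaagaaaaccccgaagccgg
E2f2, chr4:136172024-136172323, plus strand: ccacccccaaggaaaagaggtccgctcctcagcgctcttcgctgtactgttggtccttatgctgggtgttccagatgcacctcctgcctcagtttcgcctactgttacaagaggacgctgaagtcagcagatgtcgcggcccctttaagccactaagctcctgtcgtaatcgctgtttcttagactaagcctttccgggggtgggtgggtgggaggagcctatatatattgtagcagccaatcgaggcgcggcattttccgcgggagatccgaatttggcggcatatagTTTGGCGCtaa
E2f3, chr13:29986014-29986313, minus strand: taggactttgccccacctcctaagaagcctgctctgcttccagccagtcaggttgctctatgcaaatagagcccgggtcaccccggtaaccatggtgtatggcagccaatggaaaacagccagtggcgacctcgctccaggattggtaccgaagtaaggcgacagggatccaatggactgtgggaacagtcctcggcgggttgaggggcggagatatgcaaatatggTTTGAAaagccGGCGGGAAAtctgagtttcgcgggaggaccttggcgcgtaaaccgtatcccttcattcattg
E2f7, chr10:110745189-110745488, plus strand: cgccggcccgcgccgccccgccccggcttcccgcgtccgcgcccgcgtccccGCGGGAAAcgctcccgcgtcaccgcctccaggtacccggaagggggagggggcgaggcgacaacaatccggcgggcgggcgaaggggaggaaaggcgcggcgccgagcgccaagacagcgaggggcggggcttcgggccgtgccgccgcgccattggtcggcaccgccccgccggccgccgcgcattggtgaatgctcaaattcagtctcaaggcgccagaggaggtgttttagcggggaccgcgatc

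In Rbl1 the match TTTCGCGC ends 11 bases before the start. In E2f2 the match TTTGGCGC begins 39 bases after the start of the outer window, in transcribed sequence. In E2f3 the match GCGGGAAA, which is TTTCCCGC on the other strand, ends 4 bases before the start. It overlaps the GC-rich spelling GGCGGGAA, found in 2.19% of all windows and in 1 of the 10 member windows. The same E2f3 window holds TTTGAA, the cell cycle homology element bound by the MuvB core. TTTGAA was found in 17.9% of all windows and, on either strand, in windows of E2f2, E2f3, Rbl2 and E2f8. Those of E2f2 and E2f8 belong to starts 8508 and 477 bases inside the annotated gene. The inner E2f3 window, 1673 bases inside the gene, had no match to any motif. In E2f7 the match GCGGGAAA lies further off and begins 198 bases before the start. A match describes letters in a window and does not show binding.

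**Figure D3:**
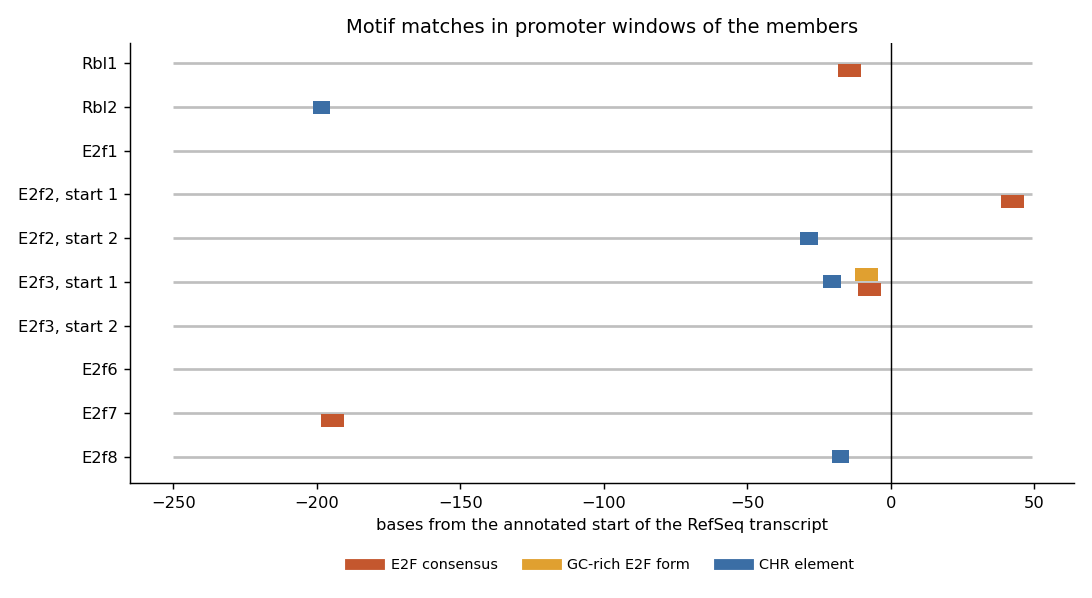
Positions of motif matches in the 10 member windows, in bases from the annotated start (vertical line at 0); red boxes mark the E2F motif, yellow its GC-rich spelling and blue TTTGAA. The E2F matches of Rbl1, E2f2 and E2f3 lie within 50 bases of a start, and that of E2f7 lies further upstream.

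E2f4 and E2f5, the partners of p107 and p130, did not pass the test. E2f4 (ILMN_2794796) read 368, 333 and 380 units in the wild type and 336, 344 and 344 in the knockout. Its change was 0.13 ± 0.11, with a 95% interval from -0.11 to 0.36 (limma adjusted p = 0.38). E2f5 (ILMN_2953596) read 405, 349 and 367 units against 345, 319 and 351, a change of 0.042 ± 0.0996 with an interval from -0.18 to 0.27 (limma adjusted p = 0.771). Genotypes overlapped for both genes. The E2f1 interval ran from 0.33 to 0.74, so that of E2f4 overlapped it and that of E2f5 ended below it. Both overlapped the Rbl1 interval, from 0.09 to 0.59. A difference between members was not tested. A further E2f5 probe (ILMN_2743953) was not detected on any array.

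E2f6, the Polycomb-linked repressor, had the most probes, 6, of which 5 were kept. The brightest (ILMN_2723931) read 1413, 1223 and 1209 units in the wild type and 1033, 1341 and 1181 in the knockout. Its change was -0.014 ± 0.099, with an interval from -0.24 to 0.21 (limma adjusted p = 0.923). The probes ILMN_2791963 and ILMN_2734152, for the same accession, gave 0.050 ± 0.092 and 0.00 ± 0.099, and neither passed. The probe ILMN_2581972, annotated to a separate cDNA, gave 0.29 ± 0.092 and passed (limma adjusted p = 0.0355). Its uncorrected intensities of 213, 207 and 188 against 206, 199 and 210 overlapped. That call was lost without wild-type array A, B or C (limma adjusted p = 0.0808, 0.0524 and 0.109), without knockout array D or F (0.0783 and 0.0964), under median scaling (0.479) and under cyclic loess (0.0638). Its adjusted p ran from 0.0191 to 0.479 over 17 alternatives. The difference between this probe and the other E2f6 probes was not tested. A further dim probe (ILMN_1253173), detected on 4 of the 6 arrays, gave 0.18 ± 0.17 and did not pass (limma adjusted p = 0.438). The last E2f6 probe (ILMN_1246301) was detected on 1 wild-type array and was not kept.

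The atypical repressors and p130 were at or near background. E2f7 was kept through 1 of its 4 probes (ILMN_2571766), which was detected on all 3 wild-type arrays and on knockout array F only. It read 112, 119 and 99.4 units against 87.0, 87.2 and 101, and its change of -0.41 ± 0.20 did not pass (limma adjusted p = 0.133). Knockout arrays D and E lay below all wild-type arrays and array F lay among them. Without array F the change was -0.66 and passed (limma adjusted p = 0.00583). Neither remaining knockout array detected the probe, so it was then kept through the wild type alone, which fixed its direction, and the size is uncertain. Under median scaling the change was -0.48 (0.0465). Across 17 alternatives its adjusted p ran from 0.00583 to 0.335. The single E2f8 probe (ILMN_2712498) read between 72.9 and 89.4 units and was not detected on any array. The 2 Rbl2 probes read between 75.0 and 89.5 units and were not detected on any array. For E2f8 and Rbl2 a difference between genotypes was not detectable with these probes.

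Of the 11 member probes that were not kept, 9 were detected on no array and none on more than 1. By their 6 values centred on each gene's mean, the kept genes nearest to E2f2 were Myo7a, a myosin gene, Tmem45b, a membrane protein gene, and Ctsc, the gene of the lysosomal protease cathepsin C. They lay at Euclidean distances of 0.316, 0.322 and 0.322 log2 units over 6 arrays, with changes of 1.46, 1.37 and 1.52. No member was called lower, so no such neighbours are given for a fall.

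The proteins that E2Fs work with were read next. Tfdp1 and Tfdp2 encode the DP partners, and neither passed: Tfdp1 changed by -0.059 ± 0.094 (limma adjusted p = 0.66) and Tfdp2 by -0.024 ± 0.093 (0.862). In the list of DP partners and MuvB core genes, 1 of 6 kept genes was higher and 0 lower. Those shares are no larger than the 20.6% higher and 19.1% lower among all kept genes, so the count is no result about the list. The gene called higher was Mybl2, at 0.43 ± 0.085 (limma adjusted p = 0.00341). Mybl2 encodes the B-Myb factor that joins the MuvB core in S phase. It was not called under median scaling, and its other 2 probes were not kept. The median of the 6 genes was 0.18, beside 0.027 for all kept genes, and this difference was not tested.

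Of the cyclins, kinases and inhibitors upstream of the pocket proteins, 3 of 15 kept genes were higher and 2 lower. These shares are no larger than those of all kept genes (20.6% higher and 19.1% lower), so the count is no result about the list. Cdkn1a, which encodes the p53-induced kinase inhibitor p21, fell by 0.85 ± 0.091 (limma adjusted p = 9.52e-05), and its other kept probes gave -1.10 and -0.80. Ccne1, the cyclin E1 gene and a known E2F target, read 211, 188 and 214 units in the wild type and 252, 247 and 238 in the knockout, a rise of 0.65 ± 0.11 (limma adjusted p = 0.00177). The related Ccne2 rose by 0.31 ± 0.095 (0.0278), with mean uncorrected intensities of 123 and 122 in wild type and knockout. Cdkn2c, the gene of the CDK4 and CDK6 inhibitor p18, rose by 0.52 ± 0.12 (limma adjusted p = 0.00871). Ccnd2, a D cyclin gene, fell by 0.41 ± 0.10 (limma adjusted p = 0.0114). Rb1, the pocket protein gene whose intron holds Lpar6, changed by 0.23 ± 0.085 and did not pass (limma adjusted p = 0.0594). Its other kept probe gave 0.19 ± 0.11 (0.193). The number of genes called higher ran from 1 under median scaling to 6 when the probes of a gene were averaged.

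Genes that E2Fs switch on at the start of S phase were higher in 19 of 29 kept members and lower in 0, with a median of 0.40. Of all kept genes, 20.6% were called higher and 19.1% lower, with a median change of 0.027. Tk1, thymidine kinase, rose by 0.81 ± 0.098 (limma adjusted p = 0.000215). It was followed by the chromatin assembly gene Chaf1b (0.70 ± 0.083) and the DNA polymerase epsilon gene Pole (0.67 ± 0.088). The helicase activation genes Cdc45 (0.64 ± 0.11) and Gins1 (0.64 ± 0.13) were next. No wild-type array detected Orc1, so the detection filter kept it only through the knockout and fixed its direction. Under median scaling 11 were higher and 1 lower. The E2F motif lay in 2.26% of all windows and in 39.4% of the 33 windows of this list. The list was named as E2F targets, so its motif share is no result of these data. Among its kept genes with a window, 7 of 16 called higher and 5 of 9 not called had the motif.

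The DREAM complex (E2F4 or E2F5, p107 or p130 and the MuvB core) represses genes of mitosis in resting cells. Of the 24 genes of this list, all 14 that were kept were higher, with a median of 0.59. Among all kept genes 20.6% were called higher, and the median change was 0.027. Plk1, the mitotic kinase, read 461, 377 and 353 units in the wild type and 953, 1209 and 1092 in the knockout and rose by 1.80 ± 0.11 (limma adjusted p = 2.24e-06). Kif23 (0.92 ± 0.10), Cdc25c (0.88 ± 0.098), Bub1b (0.79 ± 0.088) and Aurkb (0.77 ± 0.089), which act in cytokinesis, mitotic entry, the spindle checkpoint and chromosome segregation, were next. The count was 12 under median scaling and at an adjusted p below 0.01. TTTGAA lay in 76.2% of the 21 windows of this list and the E2F motif in 4.76%, beside 17.9% and 2.26% of all windows. The list was named as DREAM targets, so its TTTGAA share is no result of these data. The calls of the S phase and mitosis lists come from the same arrays as the shifts of marker genes given above, whose part was not tested.

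The E2F6 side of the family was read by 2 lists. Of the 10 Polycomb partners of E2F6, 1 was higher and 2 lower, with a median of -0.002, beside 20.6% higher and 19.1% lower among all kept genes. The count is near that background and is no result about the list. Yaf2 fell by 0.82 ± 0.12 (limma adjusted p = 0.000773) and its paralogue Rybp by 0.36 ± 0.093 (0.0138); both encode RING1-binding proteins. Max, the dimer partner of MGA in that complex, rose by 0.59 ± 0.14 (limma adjusted p = 0.00856) but was detected on only 1 wild-type array, so its size is uncertain. Of 9 germline genes known as silenced through E2F6, 5 were kept and 1 was higher, again near the background of 20.6%. That gene was Tdrkh, a piRNA pathway gene (0.31 ± 0.097, limma adjusted p = 0.0292). That call was lost under median scaling, under cyclic loess, at an adjusted p below 0.01 and with the mean of the gene's probes. The GC-rich E2F spelling lay in 44.4% of the 9 windows of the germline list, beside 2.19% of all windows. The germline list was named as E2F6 targets, so this share is no result of these data. In that list 3 of the 4 kept genes that were not called had it, and Tdrkh did not.

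**Figure D4:**
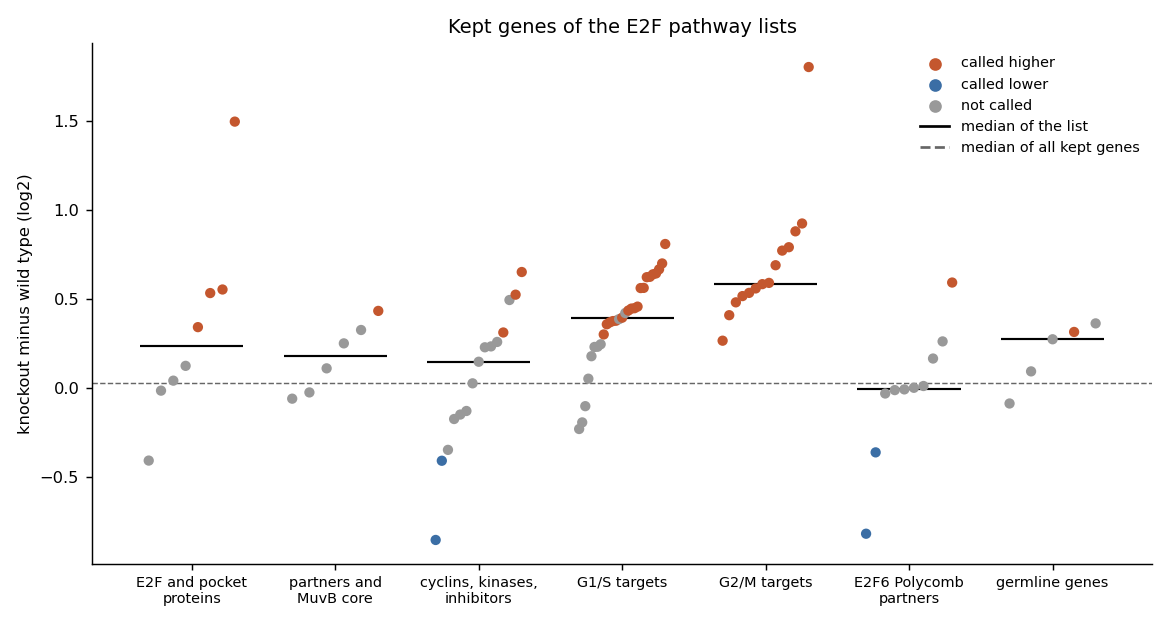
Difference in normalized log2 intensity, knockout less wild type, for the kept genes of 7 pathway lists, with each list's median as a line and the median of all kept genes, 0.027, dashed. All 14 kept mitosis genes are called higher, and the Polycomb partners are centred near 0.

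The scaling moved the members by unequal amounts. The median change of all kept genes was 0.027 as reported and -0.082 under median scaling, where 1393 genes were higher and 2713 lower in place of 2273 and 2106. Relative to those medians, E2f1 stood at 0.51 as reported and 0.52 under median scaling, E2f2 at 1.47 and 1.39, E2f3 at 0.53 and 0.46, and Rbl1 at 0.32 and 0.22. The calls of E2f1, E2f2 and the brighter E2f3 probe were kept under median scaling. E2f4 stood at 0.098 as reported and 0.056 under median scaling relative to the medians, and E2f5 at 0.015 and -0.028, with no call for either. E2f7, which gained a call under median scaling, stood at -0.433 as reported and -0.394 there. Relative to the medians its fall was thus not larger under median scaling.

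**Figure D5:**
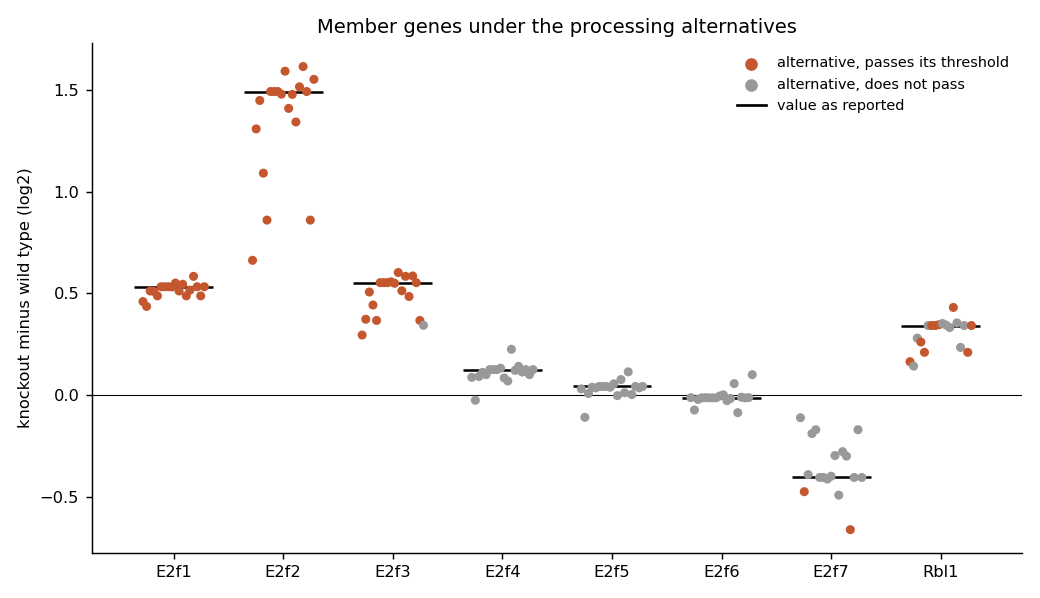
Change of the 8 kept member genes on the log2 scale (vertical axis) as reported (line) and under the 18 processing alternatives, or 17 for E2f7 (points; red where the alternative passes its own threshold). E2f1 and E2f2 pass throughout, E2f3 fails with the mean of its probes, and Rbl1 fails in 9 of 18.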

How the data were processed

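Total RNA was taken from 6 samples of mouse embryonic fibroblasts with Trizol, made into biotinylated cRNA and read on Illumina bead arrays, per the labels' protocols. The authors deposited intensity values that had not been normalized, and a detection p-value beside each. A separate table deposited by the authors holds log2 values, and limma is the tool named in the submitters' processing notes. Its group means lay within 0.0039 of log2 intensities after plain quantile normalization, and its column medians were 6.54. The intensity columns show a genotype and one of the letters A to F, not a replicate number, so an effect of array position that follows the letters cannot be told apart from genotype.

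Background was corrected with normexp from the detection p-values, followed by quantile normalization and log2 with an offset of 16 (neqc, limma 3.58.1, R 4.3.3). Probes with a detection p below 0.05 on at least 3 of 6 arrays were kept (19802 of 45281). All were tested with lmFit and eBayes, 2-sided, p-values being adjusted by Benjamini-Hochberg across every probe kept, threshold 0.05. Gene names came from GEO's platform annotation, updated through a RefSeq table of GRCm38.p6. A list gene is its brightest kept probe. List genes without a kept probe were not tested, and list genes with no probe under their name were not analysed here. The genes named were all members, up to 5 called genes with the largest change of each list, and Rb1, Tfdp1 and Tfdp2. The members and lists were chosen with earlier results of these data known. The steps were tested on simulated data. The number of arrays limits the precision.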

Additional observations from a re-analysis of the deposited data

How the results depend on the processing

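E2f1 and both E2f2 probes kept their call and direction in every alternative run for them (18, 18 and 16). E2f3 by its brighter probe lost its call with the mean of its probes (0.34); the alternative averages in a probe that did not pass. Rbl1 lost its call under median scaling (0.14), cyclic loess (0.28), no filter on detection (0.34) and an adjusted p threshold of 0.01 (0.34); leaving out each array gave 0.23 to 0.43. E2f7 gained a call under median scaling (-0.48), and leaving out each array gave -0.66 to -0.28, the former with no knockout array left that detected it. Accordingly 1 member was lower under median scaling, and 0 to 1 on leaving out an array, in place of 0. Genes of the cyclin, kinase and inhibitor list called higher (3 as reported) were 5 with plain log2 values, an offset of 50, detection p below 0.01 on all 6 arrays, eBayes with trend and robust, and the replicate block, 6 with the mean of probes, 1 under median scaling and 2 to 5 on leaving out an array; those called lower were 1 at a threshold of 0.01 in place of 2. For DP partners and the MuvB core the count higher was 0 under median scaling and 2 with the mean of probes and the replicate block, in place of 1, and 1 to 2 on leaving out an array. S phase genes called lower were 2 with plain log2 values and with the authors' log2 values, and 1 under median scaling, an offset of 50, the stricter detection filter, trend and robust, the replicate block and the mean of probes, in place of 0; those called higher were 11 under median scaling in place of 19. Polycomb partners called higher were 2 in place of 1 with plain log2 values, an offset of 50, the authors' values, trend and robust, the replicate block and the mean of probes; those called lower were 1 at a threshold of 0.01 in place of 2. Germline genes called higher were 0 under median scaling, cyclic loess, a threshold of 0.01 and the mean of probes and 2 with the stricter detection filter, in place of 1, and 0 to 2 on leaving out an array. Apart from the averaging of probes and the stricter thresholds and filters, the cause of these shifts was not tested.

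Replicate numbers stand only on the authors' log2 values, so the replicate block was run with those values. Deviations of same-numbered arrays correlated at -0.048, 0.02 and -0.054, so no pairing by number was seen in the values. These correlations cannot show whether same-numbered samples were prepared together. With the replicate block E2f1 changed by 0.49, E2f2 by 0.86, E2f3 by 0.37 and Rbl1 by 0.21, all called. Signal near background limits E2f2, E2f3 ILMN_1214485, E2f6 ILMN_1253173 and E2f7, and the E2f8 and Rbl2 probes were not detected.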
